A study of Homo sapiens with 2 samples.

Results

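The 8 genes described here, MSH6, MSH3, PMS2, MLH3, PMS1, EXO1, MSH4 and MSH5, belong to the mismatch repair family. They were chosen by symbol and not by a cut on level, though with earlier results of these data known. The choice was from 28133 named genes with a usable estimate in both libraries, and all 8 were found. Poly(A) RNA was sequenced from recombinant U2OS cells, which derive from a human osteosarcoma. The line carries a G1S cell cycle phase marker and makes the nuclease Cas9 stably, driven by a CAG promoter; the labels spell the line both G1S-CCPM-Cas9 and G1S-CCMP-Cas9. For the culture, the labels list 10% serum and geneticin at 500 ug per mL. Otherwise untreated cells gave 2 libraries of 1 group, called replicate 1 and replicate 2. There is thus no contrast between conditions, and no line without the marker or without Cas9 was analysed here. Separate cultures are not named for the replicates, and their spread may be technical only.

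Mismatch repair removes bases that DNA polymerase has put in wrongly and small loops left by slippage. A heterodimer of MutS homologues (the MSH proteins) finds the error, a heterodimer of MutL homologues (the MLH and PMS proteins) is recruited and nicks the new strand, an exonuclease removes the strand past the error, and DNA polymerase delta, PCNA and a ligase fill the gap. The same family has a branch in meiosis, where MSH4 and MSH5 act together with MLH3 on crossovers between homologous chromosomes.

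Levels are given as FPKM, that is fragments for each kilobase of a transcript relative to all mapped fragments of the library, which is a value per length and so can be compared between genes. Each has the lower and upper confidence bound deposited for that library, and mean ± SD has n = 2. The depth behind the values is known only in relative terms: the median coverage per unit of FPKM was 5.78 for replicate 1 and 5.57 for replicate 2. Of 8 bone lineage genes, 4 stood at FPKM 1 or more in both libraries, among them SPARC (312 and 297) and COL1A1 (69.2 and 82.6), while COL1A2 (0.0679 and 0.0809), SP7 (0.0104 and 0.0108), BGLAP (0 and 0) and IBSP (0 and 0) did not. Markers of blood (PTPRC), endothelium (PECAM1), epithelium (KRT5), liver (ALB) and germ cells (0 of 5) were below FPKM 1 in both. A gene was called detected at FPKM 1 or more in both libraries; by that rule 7 of the 8 mismatch repair genes were detected, where 41.3% of all named genes were.

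MSH6 had the highest level of the 8 genes. It is the partner that gives the MutS heterodimer its preference for single mispaired bases and very short loops. Its locus (chr2:47783082-47806953 in GRCh38, plus strand) stood at 61.8 FPKM in replicate 1 (bounds 59.7 to 63.9) and 68.0 in replicate 2 (65.5 to 70.5), a mean of 64.9 ± 4.36. That mean lay above 90.1% of the detected genes and 3.79 times above that of EXO1, the next of the 8. The confidence bounds of the libraries did not meet, and the log2 ratio of (FPKM + 1), replicate 2 over replicate 1, was 0.13.

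MSH3, the alternative partner, turns the heterodimer towards larger insertion and deletion loops and stood far below MSH6. Its locus (chr5:80654648-80876815, plus strand) had 9.94 FPKM (9.40 to 10.5) in replicate 1 and 11.1 (10.5 to 11.7) in replicate 2, a mean of 10.5 ± 0.823. The bounds again did not meet, with replicate 2 higher (log2 ratio 0.15).

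The 4 MSH genes share an ATP-binding motif, which in MSH6 and MSH3 couples mismatch recognition to the next step. It is shown for all of them because it was found in the undetected MSH4 as well as in the detected MSH6, MSH3 and MSH5. The other members were not searched for it. A search of the translated coding sequences of GENCODE 29 (GRCh38) found it at 1 place in each: codons 1134 to 1141 of MSH6 (chr2:47803647-47803670), 896 to 903 of MSH3 (chr5:80813614-80813637), 680 to 687 of MSH4 (chr1:75883752-75883775) and 592 to 599 of MSH5 (chr6:31760178-31760201), all on the plus strand. Of the 24 bases, MSH3 and MSH4 share 20 position by position, MSH6 shares 18 with each of them, and MSH5 shares 12 to 16 with the others. The search asked for the same amino acid at most of these codons, so part of this identity was fixed by the search.
MSH6 ATP-binding motif: ggaccaaatatggggggcaagtct
MSH3 ATP-binding motif: ggaccaaacatgggtggaaagagc
MSH4 ATP-binding motif: ggaccaaacatgagtggaaaatcc
MSH5 ATP-binding motif: ggacccaactcatcagggaagagc

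MSH6 and MSH3 also carry a PCNA-binding motif near the start of the protein, which ties mismatch recognition to the replication clamp. Among the first 100 codons it was found once in MSH6 (codons 4 to 11, chr2:47783243-47783266) and once in MSH3 (codons 21 to 28, chr5:80654788-80654811), and in neither MSH4 nor MSH5. These bases matter for the transcripts of MSH6 described next.
MSH6 PCNA-binding motif: cagagcaccctgtacagcttcttc
MSH3 PCNA-binding motif: caagcggttttgagccgattcttc

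The FPKM of MSH6 was divided over 2 of its 5 reference transcripts. The larger share went to XM_005264271.1, with 38.6 FPKM in replicate 1 and 53.7 in replicate 2, or 62.4% and 79.0% of the locus. The rest went to NM_000179.2, the full-length transcript, with 23.2 and 14.3. XM_005264271.1 starts at base 47784181 of chromosome 2 and NM_000179.2 at base 47783082. The model of the leading row thus begins downstream of the PCNA-binding motif, and its span does not hold those bases. How the FPKM is divided between these overlapping models is an estimate of the quantification. The share of MSH6 RNA without the motif is therefore not known here. The bounds of both rows were apart between the libraries, in opposite directions (log2 ratio 0.47 for XM_005264271.1 and -0.66 for NM_000179.2), while the locus differed by 0.13. The NM_001281492.1, NM_001281493.1 and NM_001281494.1 rows were at 0 in both libraries. MSH3 has 1 reference transcript, NM_002439.4, which held all of its FPKM.

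**Figure D1:**
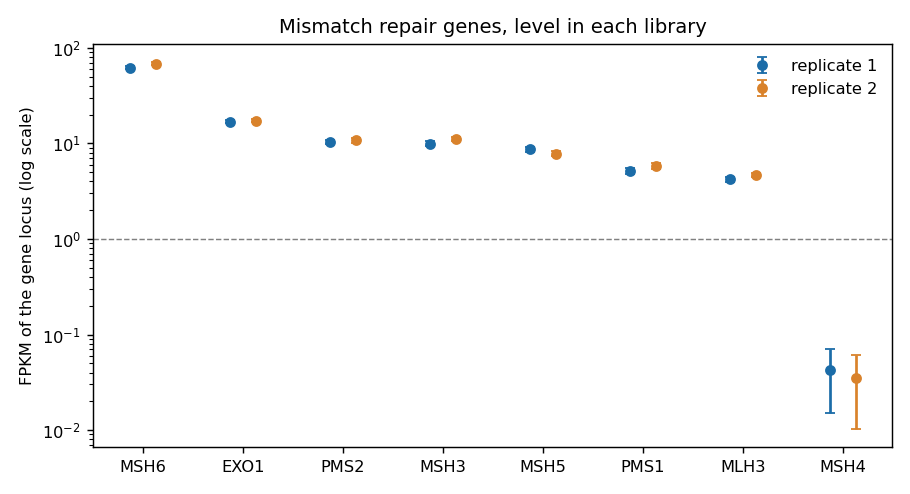
FPKM of the 8 mismatch repair gene loci (vertical axis, log scale) in replicate 1 and replicate 2, ordered by mean; bars are the deposited confidence bounds of each library and the dashed line is FPKM 1. MSH6 stood at 61.8 and 68.0, 6 genes lay between 4.21 and 17.3, and MSH4 lay at 0.0426 and 0.0354.

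The plot of levels by library shows how the 8 genes ranked. By mean the order was MSH6, EXO1, PMS2, MSH3, MSH5, PMS1, MLH3 and MSH4. PMS2 and MSH3 could not be ranked: their means were 10.5 each, their ranges overlapped, and PMS2 was the higher in replicate 1 and MSH3 in replicate 2. For each of the other 6 neighbouring pairs in that order, the higher gene was the same in both libraries and the confidence bounds did not overlap within either library.

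PMS2 supplies the endonuclease that nicks the new strand in the main MutL heterodimer. Its locus (chr7:5973239-6009106, minus strand) had 10.3 FPKM (9.74 to 10.9) in replicate 1 and 10.8 (10.2 to 11.3) in replicate 2, a mean of 10.5 ± 0.316. The libraries overlapped in their bounds, and the mean lay above 46.1% of detected genes, close to the middle. MLH3, the endonuclease subunit of the MutL heterodimer that resolves meiotic crossovers, was the lowest of the detected members. Its locus (chr14:75013764-75051532, minus strand) had 4.21 FPKM (3.95 to 4.46) in replicate 1 and 4.68 (4.41 to 4.95) in replicate 2, a mean of 4.44 ± 0.338, above 22.5% of detected genes.

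The endonuclease motif of these subunits is shown because the transcripts of MLH3 differ in it. Searched in the translated coding sequences, it was found once in PMS2 (codons 699 to 710, chr7:5982868-5982903, minus strand) and once in the MLH3 transcript NM_001040108 (codons 1223 to 1234, chr14:75033432-75033467, minus strand). It was not found in the MLH3 transcript NM_014381 or in PMS1. In MLH3 the motif lies inside a 72-base coding exon, the 7th of 13 in NM_001040108 (chr14:75033419-75033490), which NM_014381 lacks. In the exon below, from GENCODE 29, capitals mark the 36 bases of the motif.
PMS2 endonuclease motif: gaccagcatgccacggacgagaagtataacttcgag
MLH3 exon 7: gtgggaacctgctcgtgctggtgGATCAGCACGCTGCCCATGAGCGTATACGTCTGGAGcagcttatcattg

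The deposited rows of MLH3 bear on that exon only through their lengths. XM_005267532.2 and XM_005267533.2 have the same start and end, and the second is 72 bases shorter, 4700 against 4772. XM_005267532.2 was at 0 in both libraries, while XM_005267533.2 had 1.91 FPKM in replicate 1 and 1.05 in replicate 2, or 45.4% and 22.5% of the locus. The leading row, XM_006720116.1, had 2.30 and 3.03 FPKM (54.6% and 64.6%) and is 4753 bases long; the files do not list exons, so whether it holds the 72 bases is not known here. The unnamed reference row rna59168 was at 0 in replicate 1 and 0.605 in replicate 2. NM_014381.2 and NM_001040108.1, which reach to base 75013764 of chromosome 14, were at 0 in both libraries, and the rows that held most of the FPKM end at base 75016783.

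Of the 5 reference rows of PMS2, 2 were above 0. The leading row, rna31933, carries no accession and had 8.12 FPKM in replicate 1 and 6.80 in replicate 2, or 78.7% and 63.2% of the locus. XM_006715742.1 held 21.3% and 28.8%, and the rest was in a transcript assembled in replicate 2 alone, at 0.862 FPKM; another, assembled in replicate 1 alone, was at 0. NM_000535.5, which has the same ends as rna31933 and is 2836 bases long against 2831, was at 0 in both. Which of 2 models so alike receives the reads is an estimate of the quantification, so the level of PMS2 is firmer than its division.

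PMS2 has related copies on the same chromosome, and reads may be shared among them. Their rows are shorter, with 1518 bases for PMS2P1, 1501 for PMS2P3 and 639 for PMS2L2, against 2831 for the leading PMS2 row. Their likeness to PMS2 was not measured. The pseudogene PMS2P1 stood at 22.0 FPKM (20.7 to 23.3) in replicate 1 and 14.8 (13.8 to 15.8) in replicate 2, above PMS2 in both libraries. PMS2L2 had 3.06 and 2.77, and PMS2P3 had 1.56 and 1.72. PMS2P1 thus differed between the libraries by -0.54 (log2 ratio of FPKM + 1) and PMS2 by 0.06; the part of shared reads in either value was not tested. On its other side PMS2 is 144 bases from AIMP2, a scaffold protein gene of the aminoacyl-tRNA synthetase complex, which was listed at 43.5 FPKM in replicate 1 and at 0 in replicate 2. A gene listed at 0 in this way may be a failed estimate, and PMS2 did not move with it. The whole interval between the starts of these genes, from RefSeq (GRCh38.p14), is shown on the minus strand (chr7:6009107-6009250) with its 12 CpG in capitals.
PMS2 to AIMP2: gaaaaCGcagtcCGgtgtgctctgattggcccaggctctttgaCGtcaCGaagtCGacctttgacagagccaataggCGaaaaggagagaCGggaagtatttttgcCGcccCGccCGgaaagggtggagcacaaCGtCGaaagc

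PMS1, a MutL homologue with no endonuclease motif and no settled part in mismatch repair, stood between MSH5 and MLH3. Its locus (chr2:189784085-189877629, plus strand) had 5.11 FPKM (4.73 to 5.48) in replicate 1 and 5.84 (5.43 to 6.25) in replicate 2, a mean of 5.47 ± 0.521. The bounds of the libraries overlapped narrowly, and the log2 ratio was 0.16, the largest of the 7 detected members. All of it was in 1 of 9 reference rows, XM_005246647.1, which starts at base 189785346; the 6 rows that start at base 189784085 were at 0 in both libraries. The locus overlaps by 287 bases that of ORMDL1, a regulator of sphingolipid synthesis, at 14.5 and 15.1. Whether quantification used strand is not known here. The overlap ends at base 189784371, before the start of XM_005246647.1, so the row that held the FPKM of PMS1 does not span those bases.

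EXO1, the exonuclease that removes the strand past the mismatch, had the second highest level and the smallest relative spread. Its locus (chr1:241848189-241889939, plus strand) had 16.9 FPKM (16.2 to 17.6) in replicate 1 and 17.3 (16.6 to 18.0) in replicate 2, a mean of 17.1 ± 0.301, above 61.3% of detected genes. The libraries overlapped in their bounds at the gene level (log2 ratio 0.03) and divided the gene differently. XM_005273350.1 had 9.05 in replicate 1 and 4.84 in replicate 2, and XM_006711840.1 had 7.84 and 7.13. NM_006027.4 was at 0 in replicate 1 and 5.35 in replicate 2, so that the leading row was XM_005273350.1 in replicate 1 and XM_006711840.1 in replicate 2.

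NM_003686.4, which was at 0 in both libraries, differs from NM_006027.4 in coding sequence at the last of 14 exons. In GENCODE 29 that exon starts 2 bases later in NM_003686 than in NM_006027, which is not a whole codon. The first 30 bases of the exon in NM_006027 (chr1:241889465-241889494) are shown, with those 2 bases in capitals, because so short a difference is what tells these rows apart inside the coding sequence.
EXO1 exon 14 start: AGattctgaaaagcttcctccttgtaagaa

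The meiotic pair MSH4 and MSH5 form a heterodimer that clamps recombining chromosomes, and the 2 genes stood far apart. MSH4 (chr1:75796871-75913238, plus strand) had 0.0426 FPKM (0.0151 to 0.0701) in replicate 1 and 0.0354 (0.0104 to 0.0604) in replicate 2, a mean of 0.0390 ± 0.00511. It is the member that was not detected, at a mean 114 times below that of MLH3, although the lower bound was above 0 in both libraries. The estimated coverage of its transcript, NM_002440.3, was 0.247 and 0.198 reads per base. RABGGTB, a prenyltransferase subunit gene that ends 1780 bases upstream in replicate 1 and 1581 in replicate 2, stood at 44.6 and 47.2.

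MSH5 (chr6:31739948-31762678, plus strand) had 8.67 FPKM (8.19 to 9.16) in replicate 1 and 7.79 (7.35 to 8.23) in replicate 2, a mean of 8.23 ± 0.623 for its locus. Among the detected members MSH5 was the one lower in replicate 2 (log2 ratio -0.14), but the ratio was 0.03 with FPKM rescaled to the same sum. The deposited locus runs on to base 31764850 and takes in SAPCD1, whose own row was at 0, and assembled transcripts that reach past the end of MSH5. Counted over its own reference transcripts alone, MSH5 had 6.46 and 4.55, a mean of 5.50 ± 1.34. On that count the range of MSH5 takes in both values of PMS1, and its replicate 2 value lies below that of MLH3, so its place in the order rests on the assembled transcripts. The 7 further MSH5 loci on alternate haplotypes of the same region were at 0 in both libraries.

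Of the 4 reference rows of MSH5, NM_172166.3 led in both libraries with 4.42 and 4.55 FPKM, or 51.0% and 58.5% of the locus. NM_172165.3 had 2.04 in replicate 1 and was at 0 in replicate 2. Transcripts assembled from the reads held 2.22 FPKM in replicate 1 and 3.24 in replicate 2. Inside the coding sequence, NM_172165 and NM_172166 differ in GENCODE 29 by 3 bases at the start of exon 21 of 25. The exon as NM_172165 has it (chr6:31761185-31761262) is shown with those 3 bases in capitals, since NM_172165.3 is the row that differed between the libraries.
MSH5 exon 21: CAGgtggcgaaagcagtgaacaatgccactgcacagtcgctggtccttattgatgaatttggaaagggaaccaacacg

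**Figure D2:**
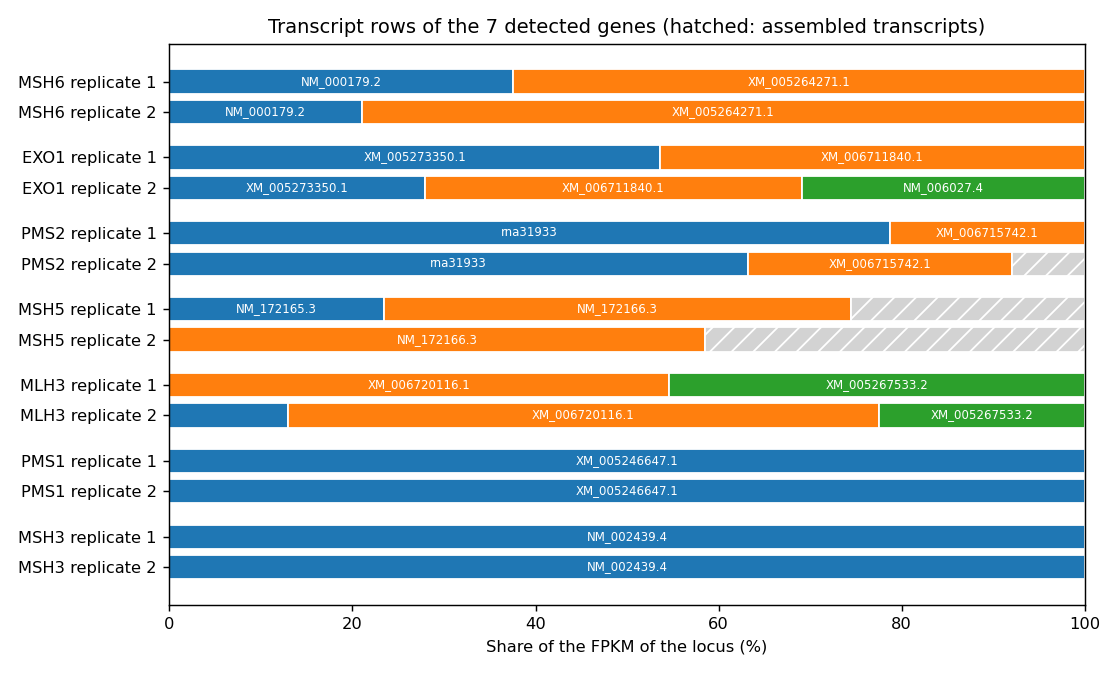
Share of the FPKM of each locus (horizontal axis, percent) held by its reference transcripts in replicate 1 and replicate 2, for the 7 detected genes; colours within a gene stand for its transcripts and hatching for transcripts assembled from the reads. MSH3 and PMS1 had a single transcript above 0. Of the reference transcripts, NM_006027.4 of EXO1, NM_172165.3 of MSH5 and rna59168 of MLH3 were above 0 in 1 library each.

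Over the 8 genes the tables list 41 reference transcripts, of which 13 were above 0 in replicate 1, 14 in replicate 2 and 12 in both. Of the 41, 13 reached FPKM 1 in either library. Of these 13, 2 differed between the libraries by a log2 ratio of at least 1 with bounds apart (15.4%), NM_006027.4 of EXO1 and NM_172165.3 of MSH5, and 18.6% differed among all 18576 reference transcripts that reached the same level. Bounds were apart for 10 of the 13 (76.9%) and for 67.6% of the 18576. Of the 6 detected members with at least 2 reference transcripts, EXO1 was the 1 whose leading transcript changed (16.7%), and the same was so for 16.1% of 8822 such genes. With so few transcripts these shares lie near those of all genes. As the bars of transcript shares show, genes whose level was close between the libraries, such as EXO1 and MSH6, had transcripts that were not.

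At the gene level none of the 7 detected members differed between the libraries by a log2 ratio of at least 1 with bounds apart, where 1.03% of 11796 genes did. Bounds were apart for 2 members, MSH6 and MSH3, against 56.4% of those genes. The SD of the log2 ratio was 0.11 over the 7 members and 0.54 over 12191 genes. Those genes reached FPKM 1 in either library and were not matched to the members by level or transcript length. No p-value applies, since the libraries belong to 1 group.

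**Figure D3:**
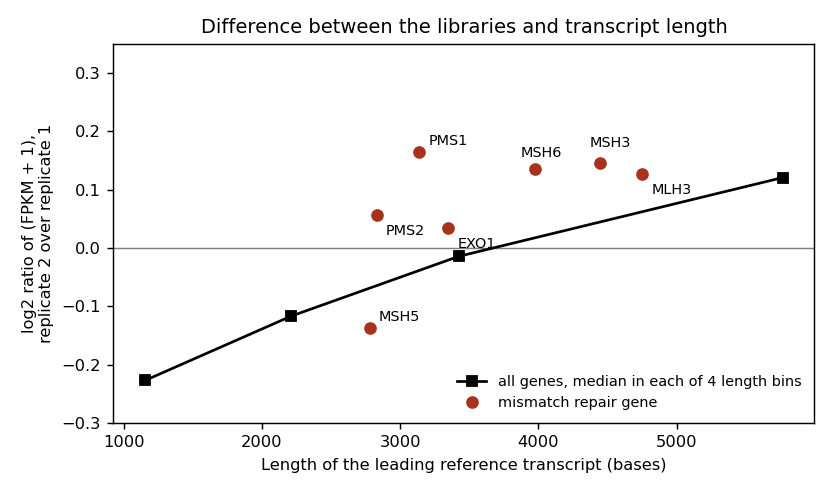
Log2 ratio of (FPKM + 1), replicate 2 over replicate 1 (vertical axis), against the length of the leading reference transcript in bases, for the 7 detected genes (circles) and for all genes as medians of 4 length bins (squares and line). Members lie between -0.14 (MSH5) and 0.16 (PMS1), and the bin medians run from -0.23 for the shortest transcripts to 0.12 for the longest.

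Replicate 2 was the higher library for 6 of the 7 members, where 44% of 12191 genes were higher in replicate 2. The direction depends on scaling: with FPKM rescaled to the same sum, 7 of 7 members and 65.1% of those genes were higher in replicate 2, and the median ratio of all genes was 0.11. Over reference transcripts alone 5 of 7 were higher, since PMS2 (-0.05) was then lower as well. The median ratio was 0.13 for the members and -0.04 for all genes. Transcript length moved with this measure: the median ratio over all genes was -0.23, -0.12, -0.01 and 0.12 in 4 bins of rising length, and the plot of ratio against length places the members in the longer bins. After the median of its own bin was subtracted, the ratio was 0.18 for PMS1, 0.15 for MSH6, 0.07 for PMS2, 0.05 for EXO1, 0.03 for MSH3, 0.01 for MLH3 and -0.12 for MSH5. The part of transcript length in the ratios was not tested further.

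The genes listed as resynthesis partners were all detected. These 15 had FPKM 1 or more in both libraries, with a median of 36.3 FPKM and means from 11.5 to 213. PCNA, the replication clamp, stood at 204 and 210, and HMGB1, a DNA-bending protein that aids excision in purified systems, at 204 and 221. The clamp loader genes RFC1 to RFC5 had means from 22.6 to 42.5, the single-strand binding genes RPA1 to RPA3 from 23.1 to 36.0, and LIG1, the ligase, 49.2 ± 0.613. The subunits of DNA polymerase delta were less even: POLD2 had 167 and 116, POLD1 46.2 and 33.7, POLD3 12.4 and 13.5, and POLD4 12.9 and 10.1. The median of the 7 detected mismatch repair genes, 10.5 FPKM, was close to that of all detected genes, 11.9, and below the mean of every resynthesis partner, although POLD4 in replicate 2 was lower. None of the 15 differed between the libraries by the rule above, and 6 of the 15 were higher in replicate 2.

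Of 7 factors that work beside mismatch repair, 6 were detected, at 2.26 to 20.8 FPKM. They were the helicase genes MCM8 (19.0 and 22.6) and MCM9 (1.99 and 2.53), SETD2 (13.3 and 17.4), which lays down the histone mark that MSH6 reads, the glycosylase gene MBD4 (10.7 and 13.4), the chromatin remodeller gene HELLS (6.70 and 7.92) and the nuclease gene FAN1 (6.49 and 5.76). MUTYH, the glycosylase gene for adenine opposite oxidised guanine, was listed at 0 in both libraries. FAN1 was the detected factor that was lower in replicate 2, where its value rests on assembled transcripts, since its reference transcripts were at 0 there. Over reference transcripts alone MCM8 had 19.0 and 18.7, so its higher value in replicate 2 also rests on assembled transcripts.

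**Figure D4:**
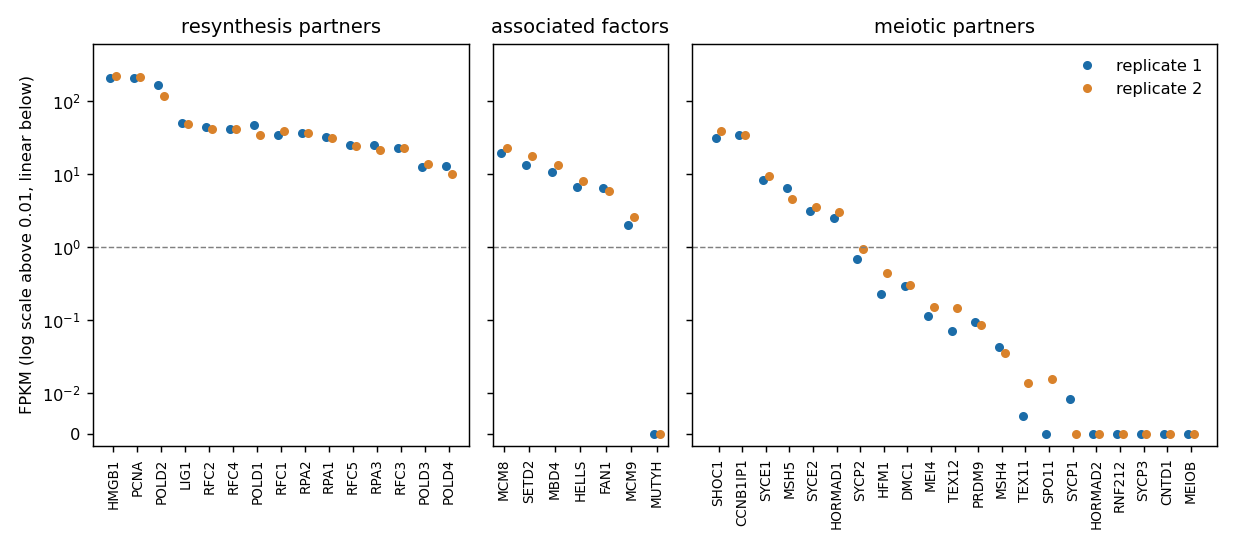
FPKM in replicate 1 and replicate 2 (vertical axis, log scale above 0.01 and linear below it) of the genes in 3 lists: resynthesis partners, associated factors and meiotic partners. All 15 resynthesis partners lie above the dashed line at FPKM 1, against 6 of 7 associated factors and 6 of 21 meiotic partners; MSH5 is drawn by its own reference transcripts.

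The meiotic partners were listed at levels from 0 to 38.9 FPKM. Of 21, MSH4 and MSH5 among them, 6 were detected, where 41.3% of all named genes were. The other 15 were below FPKM 1 in both libraries, and 5 of those were at 0 in both. SPO11 (0 and 0.0157), which makes the breaks that start meiotic recombination, DMC1 (0.293 and 0.302), the meiotic strand exchange protein gene, and SYCP1 (0.00840 and 0), SYCP2 (0.685 and 0.925) and SYCP3 (0 and 0), of the synaptonemal complex, were all below FPKM 1. RNF212 and CNTD1, of the crossover machinery in which MLH3 acts, were at 0 in both libraries. The plot of the 3 lists shows MSH4 among the low genes and MSH5 among the few above the line.

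The other detected meiotic partners were CCNB1IP1 (33.8 and 33.9), a ubiquitin ligase gene needed for crossovers in mice, SHOC1 (30.9 and 38.9), SYCE1 (8.33 and 9.27) and SYCE2 (3.08 and 3.53), both of the central element of the synaptonemal complex, and HORMAD1 (2.51 and 3.01), of the chromosome axis. The level of SHOC1 rests on assembled transcripts, since its reference transcripts had 0 in replicate 1 and 12.8 in replicate 2. Those of HORMAD1 had 2.51 and 2.23, lower in replicate 2. None of the 6 differed between the libraries by the rule above.

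The members at the ends of the range also differed in the CpG content of their promoters. In the 300 bases around each start in the RefSeq promoter table (GRCh38.p14), with 250 before it and 50 after, MSH6 had 39 CpG and MSH4 had 12; the others had 40 (PMS1), 37 (MSH3), 33 (EXO1), 30 (MSH5), 24 (PMS2) and 22 (MLH3), and the median over 35116 promoters was 14. MSH4 was thus the member below the median. Each window is the one nearest to the first base of the gene, for PMS1 at a distance of 365 bases. The leading rows of MSH6 and PMS1 start outside their windows, at base 47784181 and base 189785346 of chromosome 2. A link between CpG content and level was not tested. The bases up to the start of MSH6 (chr2:47782895-47783081) and of MSH4 (chr1:75796632-75796870), both on the plus strand, are shown as the highest and the lowest member by level, with CpG in capitals, 26 in 187 bases and 4 in 239.
MSH6 upstream: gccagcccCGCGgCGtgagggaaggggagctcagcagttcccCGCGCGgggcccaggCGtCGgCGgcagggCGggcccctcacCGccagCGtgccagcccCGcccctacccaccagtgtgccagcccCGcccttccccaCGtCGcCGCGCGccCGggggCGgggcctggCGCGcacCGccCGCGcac
MSH4 upstream: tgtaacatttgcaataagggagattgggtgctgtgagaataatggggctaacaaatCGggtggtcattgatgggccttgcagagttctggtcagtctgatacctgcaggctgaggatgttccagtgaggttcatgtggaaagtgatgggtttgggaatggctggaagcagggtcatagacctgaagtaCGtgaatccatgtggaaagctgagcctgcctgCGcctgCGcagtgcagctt

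Short motifs were searched on both strands of the same 300 bases. TTTCCCGC, an E2F-type sequence of genes switched on at the start of S phase, was found in MSH6 alone of the 8, and in 1.63% of the 35116 promoters. TTTGGCGC, of the same type, was found in MSH3 alone, and in 0.652%. GGGCGG, the core of a GC box, was in 7 of 8 and absent from MLH3, against 45.0% of promoters, and CCAAT was in 5 of 8 (MSH6, MSH4, MSH5, PMS2 and PMS1), against 34.6%. These are matches of letters within the window, and no binding was measured.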

How the data were processed

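Per the submitters' processing notes, reads were handled with Cufflinks 2.2.1, TopHat2 2.0.13, Bowtie2 2.2.3, Trimmomatic 0.32 and FastQC 0.11.2, and the build was GRCh38. The annotation release, the settings and the use of strand were not given in the sources used here; the library kit was directional, per the labels' protocols. For genes and transcripts alike, the authors deposited FPKM with its bounds and a status flag. Read coverage was estimated by the authors for transcripts only, per the file headers. Coverage per FPKM made replicate 1 1.04 times as deep as replicate 2, and the absolute depth is unknown, so no counting interval or floor is given. Bounds cover estimation within a library.

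Gene symbols came from RefSeq accessions of reference transcripts, and otherwise from the files' own names. A member's level is the FPKM deposited for the locus it lies in. Among all genes, the 737 symbols in shared loci were given the sum of their own reference transcripts, and so was MSH5 within the meiotic list. Left out were 44 genes whose status was failed in a library. Starts, which the files count from 0, had 1 added. Ratios are log2 of (FPKM + 1), replicate 2 over replicate 1, for genes that reach FPKM 1 in either library; this scale understates the ratio of low genes. A gene or transcript differed at an absolute log2 ratio of 1 or more with bounds apart. The rule was run on simulated data with less spread than these libraries, so that run does not show how often it miscalls here. With 1 group of 2 libraries no test between samples was possible. The members and lists were chosen with earlier results of these data known. The text names the 8 members, genes of the lists, PMS2 pseudogenes and genes within 10 kb of a member, with the cell type markers; 1 neighbour is not reported here. Python 3.11.15, pandas 2.3.3, numpy 2.4.6 and matplotlib 3.10.9 were used. All 8 members matched the RefSeq promoter table; exons and coding sequences came from GENCODE 29.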

Additional observations from a re-analysis of the deposited data

How the results depend on the processing

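No paired analysis was possible because the libraries form 1 group. The count of mismatch repair genes detected in both libraries was 7, and it was 6 at FPKM 5 or more and 8 where a lower bound above 0 was asked for; either library alone gave 7. None differed between the libraries with a pseudocount of 0.1, without a filter on low values or with FPKM rescaled to the same sum. The median log2 ratio, 0.13, moved to 0.28 with FPKM rescaled to the same sum, and to 0.05 with the median of the length bin subtracted, a setting chosen after seeing the data. The count of meiotic partners, 6, moved to 3 at FPKM 5 or more. With reference transcripts alone, MSH5 averaged 5.50 FPKM and PMS2 10.1, and the leading transcript of MSH5 held 84.2%. Reference transcripts alone gave 5 meiotic partners, without SHOC1, and 5 associated factors, without FAN1, also chosen after seeing the data. The cause of these moves was not tested. With 2 libraries, each SD rests on 1 pair of values.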

Other observations

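The span of MSH5 held many short assembled loci without a name. There were 14 in replicate 1, of 105 to 603 bases and 1.26 to 68.2 FPKM, and 21 in replicate 2, of 81 to 563 bases and 1.89 to 142 FPKM. None overlapped an exon of the 25 in the leading MSH5 transcript, NM_172166, as GENCODE 29 places them. Among 11613 detected genes, 99.8% held fewer such loci than MSH5 in each library, and 76.6% in replicate 1 and 70.0% in replicate 2 held none. The other members held 0 to 4. Their FPKM is not part of the MSH5 value given above. Their origin was not tested.

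Some neighbours of the members differed more between the libraries than the members did. Such differences were common, since bounds were apart between the libraries for 56.4% of 11796 genes. FBXO11, an F-box protein gene whose end overlaps that of MSH6 by 34 bases, had 17.5 FPKM (16.6 to 18.4) in replicate 1 and 25.2 (24.0 to 26.4) in replicate 2. CLIC1, a chloride channel protein gene 2629 bases from MSH5, had 357 and 294. EIF2B2, a translation initiation factor subunit gene near MLH3, had 65.8 and 52.2, and ACYP1, on its other side, had 18.1 and 17.0, with bounds that overlapped. EXO1 had no named neighbour within 10 kb.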
